A study of Mus musculus with 6 samples.

Results

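The early stage of mouse skin wound healing was compared between tissue treated with C-PC and tissue left without treatment. The labels do not spell out C-PC, which in wound studies commonly stands for C-phycocyanin, a blue light-harvesting protein of cyanobacteria. The comparison takes 2 of the 6 libraries of the study, chosen by their labels, namely early C-PC and the early negative control. In the study as a whole, each treatment has 1 library at each of 3 stages, called early, middle and late. The labels give the tissue as skin and the treatment as C-PC or none, and they give no strain, age, sex, wound model, dose or day. Nothing in them says whether the 2 early libraries came from 1 animal each, from pooled animals or from the same animals. Of 22894 genes listed for the early pair, 16589 had at least 10 reads in 1 of the 2 libraries and were compared.

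A healing skin wound is filled by granulation tissue, in which fibroblasts and myofibroblasts lay down collagen around new vessels while neutrophils and then macrophages clear debris. Neutrophils are made in bone marrow, where precursor cells transcribe the genes of their granule proteins in a fixed order, and they reach the wound as mature cells that have largely stopped doing so. Skin of the mouse also carries a muscle sheet, fat, nerves and hair follicles beneath the epidermis, so a biopsy can hold more or less of each.

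The early C-PC library held 16835495 reads on genes and the early control 18028674, and the 6 libraries lay between 15863637 and 18028674. Collagens were the most abundant transcripts of the pair, with Col1a1 at 21796 CPM (reads scaled to a library total of 1000000 on genes) with C-PC and 17891 CPM in the control. Epidermal markers were at or near 0 in both libraries, against their label of skin: Krt14, the keratin of basal keratinocytes, had 32 reads with C-PC and 0 in the control, and Krt5, its partner, had 23 reads with C-PC and 0 in the control. Krt10, a keratin of differentiated epidermis, had 28 reads with C-PC and 9 in the control. Muscle genes were plentiful, with Acta1, the skeletal muscle actin, at 1845 CPM with C-PC and 4104 CPM in the control. All 4 Y-linked genes compared were read in both libraries at similar levels, such as Ddx3y at 96.8 CPM with C-PC and 101 CPM in the control. In RNA of whole tissue, fewer cells of a type and less RNA per cell cannot be told apart.

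The ratios below are log2 of the C-PC value over the control value, each with 2 added. With 1 library per group there is no replicate error and no test. A gene was called higher or lower when it differed at least 2-fold and the exact 95% interval of its ratio, which covers counting error only, excluded equality. This rule describes the 2 libraries and says nothing of how much 2 untreated samples would differ. Of all genes compared, 485 were called higher with C-PC (2.92%) and 1137 were called lower (6.85%), 9.78% in either direction, and the median ratio was 0.00. The large differences ran 1 way: on the same scale 99 of the genes called lower differed at least 16-fold, against 4 of those called higher. Reads were absent with C-PC for 36 genes that had at least 50 in the control, and the opposite held for 1 gene. Calls were more frequent at low levels. Between 20 and 100 CPM, 0.45% of genes were called higher and 1.73% lower, whereas below 1 CPM 11.3% were called higher and 21% lower.

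**Figure D1:**
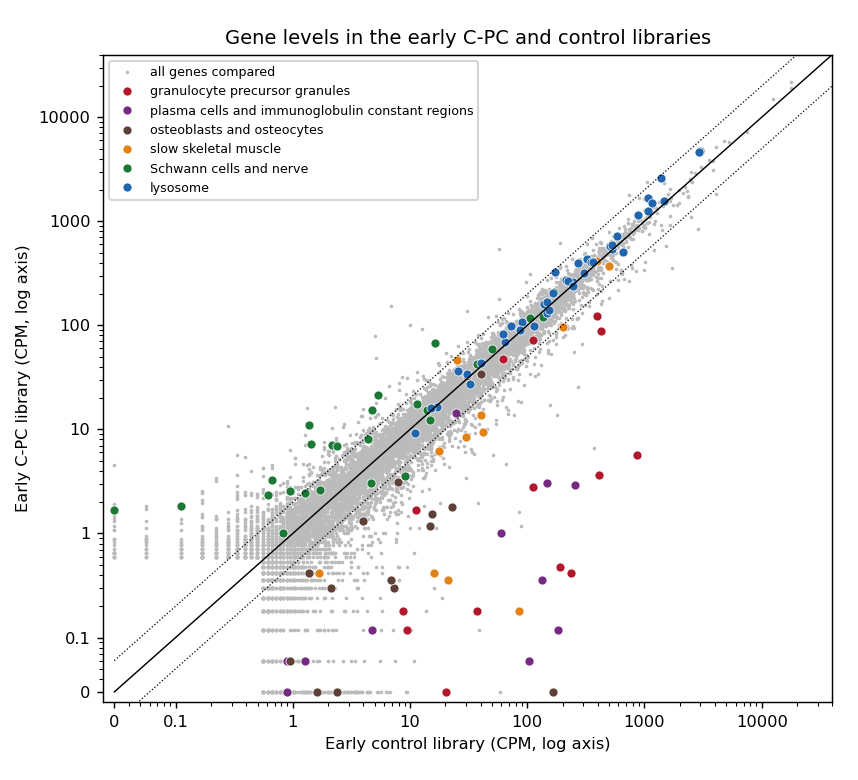
Level of each gene compared in the early C-PC library (vertical axis, CPM, log scale) against the early control (horizontal axis, CPM, log scale), with members of 6 gene lists in colour, the solid line at equality and dotted lines at 2-fold. Most genes lie near equality, while granule, immunoglobulin, bone and slow muscle genes fall far below it and several nerve genes lie above it.

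Gene lists for cell types and pathways were read through the same ratios. They differed widely, from a median of -5.54 for plasma cells and immunoglobulin constant regions to 0.89 for Schwann cells and nerve. Lists of collagens, vessels, interferon response and cell division held no called gene, and their medians lay between -0.15 and 0.13. A member compared because of its reads in 1 library alone had to differ, so the shares of called members describe the genes compared and not whole lists. Each count of called members below stands beside the 2.92% called higher and the 6.85% called lower of all genes.

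**Figure D2:**
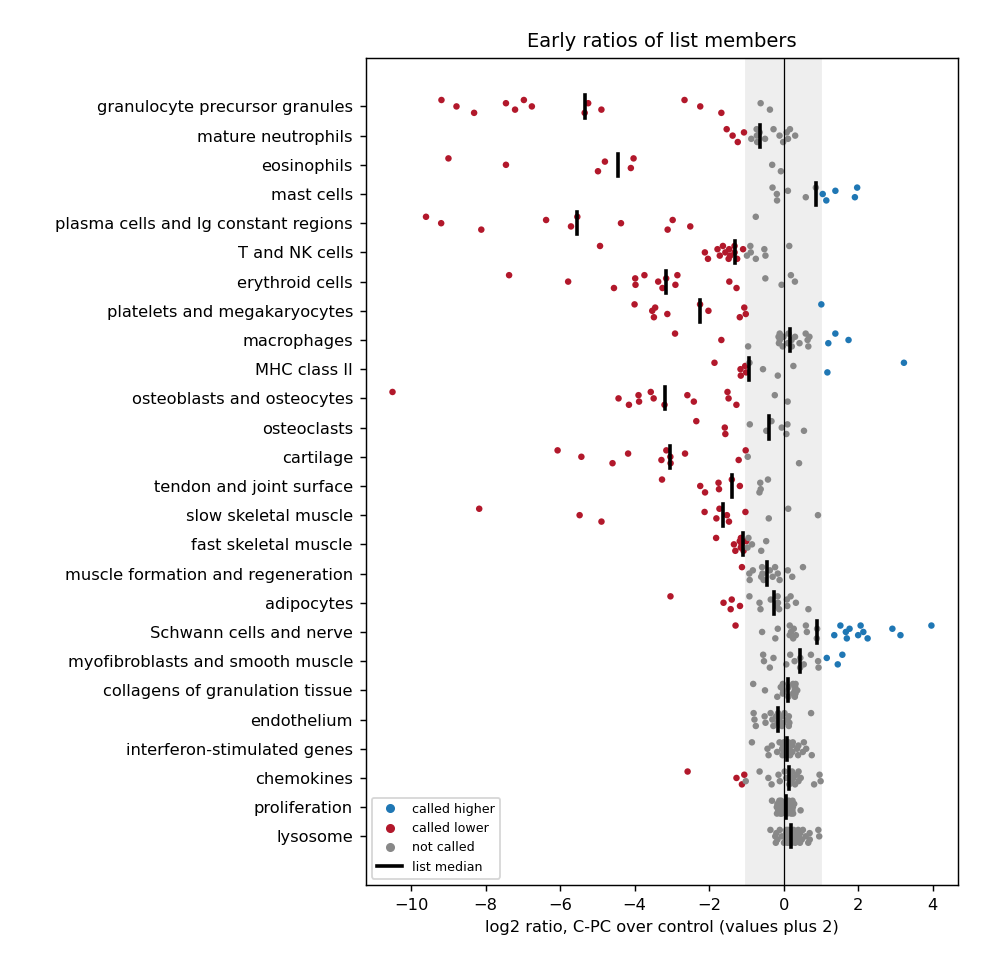
Early log2 ratio (horizontal axis, C-PC over control, values plus 2) of the compared members of 26 gene lists, with red for members called lower, blue for members called higher, grey for the rest and a black bar at each list's median. Genes at 0 reads stand at a ratio that depends on the 2 added to each value. The grey band spans less than 2-fold, and the medians of the granule, eosinophil, immunoglobulin, erythroid, bone and cartilage lists lie far to its left.

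Genes of granulocyte precursors were lower with C-PC. Of the 15 compared, 13 were called lower and 0 higher, against 6.85% of all genes called lower, and their median ratio was -5.34. Their summed level was 344 CPM with C-PC and 2999 CPM in the control. Most of what remained in the C-PC library came from 4 members, Lcn2, Chil3, Serpinb1a and Mmp8.

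The start regions of some granule genes are printed because most members of this list differed widely and C/EBP factors are known to act on such genes. Each is the RefSeq sequence on build GRCm38.p6 from 250 bases before to 50 bases after the start site, given 5′ to 3′ on the gene's strand. Capitals mark TTNNGCAA on either strand, a half-palindrome of the kind bound by C/EBP factors, which include the granulocyte regulator encoded by Cebpe. The 4 genes shown are those with the lowest ratios among the members with a match. Ms4a3 lies at chr19:11640802-11641101 on the minus strand, Ngp at chr9:110419558-110419857 on the plus strand, Ltf at chr9:111019042-111019341 on the plus strand and Fcnb at chr2:28084829-28085128 on the minus strand.
Ms4a3: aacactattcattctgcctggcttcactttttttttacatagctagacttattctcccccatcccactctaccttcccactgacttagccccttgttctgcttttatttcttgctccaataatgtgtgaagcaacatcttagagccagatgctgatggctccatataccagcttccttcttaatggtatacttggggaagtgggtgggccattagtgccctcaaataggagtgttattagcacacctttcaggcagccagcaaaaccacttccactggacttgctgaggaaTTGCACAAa
Ngp: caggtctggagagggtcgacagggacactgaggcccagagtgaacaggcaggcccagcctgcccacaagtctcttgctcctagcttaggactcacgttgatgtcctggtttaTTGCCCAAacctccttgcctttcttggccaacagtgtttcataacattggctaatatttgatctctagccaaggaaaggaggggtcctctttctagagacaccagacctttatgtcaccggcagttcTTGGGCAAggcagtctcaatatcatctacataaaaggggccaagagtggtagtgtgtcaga
Ltf: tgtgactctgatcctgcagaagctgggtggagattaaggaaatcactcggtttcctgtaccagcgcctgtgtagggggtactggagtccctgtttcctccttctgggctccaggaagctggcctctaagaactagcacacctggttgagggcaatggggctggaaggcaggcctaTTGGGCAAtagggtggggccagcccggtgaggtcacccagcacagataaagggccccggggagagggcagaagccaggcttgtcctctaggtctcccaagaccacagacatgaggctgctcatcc
Fcnb: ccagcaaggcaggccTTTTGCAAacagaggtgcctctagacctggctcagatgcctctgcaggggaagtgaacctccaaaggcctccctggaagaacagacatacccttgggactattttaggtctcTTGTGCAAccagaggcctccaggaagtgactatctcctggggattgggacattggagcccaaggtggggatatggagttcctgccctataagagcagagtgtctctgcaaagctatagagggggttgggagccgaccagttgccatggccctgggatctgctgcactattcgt
The matches began 41 bases after the start site in Ms4a3, 138 and 11 bases before it in Ngp, 75 bases before it in Ltf, and 235 and 123 bases before it in Fcnb. A match was found in 7 of the 13 precursor genes with a sequence in the table (53.8%), against 10.8% of 32544 promoters of the same length. Elane, Camp and Mpo, which had the lowest ratios of the list, are not among the 7, whereas Mmp8, which was not called, is. GATA and RUNX motifs were searched too. Each was found in 15.4% of the 13 precursor genes, against 11.2% of all promoters for GATA and 16.7% for RUNX. In the other lists searched, the share with a C/EBP match ran from 6.25% for Schwann cells and nerve to 25% for eosinophils. The C/EBP motif was chosen for display with the ratios known, and a match is a description of letters, not of binding.

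Primary granule genes, which are transcribed at the promyelocyte stage, were almost absent from the C-PC library. Ms4a3, a membrane protein of granulocyte and monocyte precursors, had 0 reads with C-PC and 364 in the control, at least 112-fold lower. Elane, the neutrophil elastase, had 1 read with C-PC and 1849 in the control (log2 ratio -9.19, 95% interval -16.04 to -8.25). Mpo, the myeloperoxidase, had 8 reads with C-PC and 3423 in the control (-8.31, -9.83 to -7.64). The C-PC library therefore held fewer than 10 reads for each of these 3 genes, whose control levels ran from 20.2 to 190 CPM. Ctsg, the cathepsin G gene, had 3 reads with C-PC and 671 in the control (-6.97, -9.96 to -6.13). Prtn3, the proteinase 3 gene next to Elane on chromosome 10, had 47 reads with C-PC and 2021 in the control (-5.25, -5.75 to -4.89), but its exons overlap Plppr3 and these libraries carry no strand.

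Specific granule genes, which follow at the myelocyte stage, were also lower, by differing amounts. Camp, a cathelicidin antimicrobial peptide, had 7 reads with C-PC and 4273 in the control (-8.78, -10.45 to -8.09). Ngp, a neutrophil granule protein, had 95 reads with C-PC and 15617 in the control (-7.21, -7.55 to -6.95). Ltf, the lactoferrin, had 61 reads with C-PC and 7417 in the control (-6.76, -7.19 to -6.44). Lcn2, the siderophore-binding lipocalin 2 that other inflamed cells also make, had 1484 reads with C-PC and 7638 in the control (-2.24, -2.32 to -2.16). Chil3, which macrophages share, stood at 122 CPM with C-PC and 395 CPM in the control (-1.67). Per length of transcript, Ngp stood at 4.62 RPKM (the CPM divided by the transcript length in kilobases) with C-PC and 709 RPKM in the control.

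Regulators of the same lineage were lower too. Gfi1, a repressor needed for granulocyte formation, had 3 reads with C-PC and 157 in the control (-4.89, -7.88 to -4.01). Cebpe, the factor of late granulocyte maturation, had 28 reads with C-PC and 204 in the control (-2.66, -3.37 to -2.17). Myb, a regulator of blood precursors that was picked after its values were seen, had 11 reads with C-PC and 196 in the control (-3.82, -5.06 to -3.16). Among other granulocyte genes picked in the same way, Cd177 had 27 reads with C-PC and 1543 in the control, and Olfm4 had 58 reads with C-PC and 539 in the control.

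Genes of mature neutrophils differed far less. Of 17 compared, 4 were called lower (23.5%, beside 6.85% of all genes) and 0 higher. Their median was -0.65, and their summed level was 2595 CPM with C-PC and 4888 CPM in the control. S100a8 and S100a9 encode the calprotectin subunits. S100a8 stood at 339 CPM with C-PC and 995 CPM in the control (-1.53, -1.57 to -1.49), and S100a9 at 579 CPM with C-PC and 1521 CPM in the control (-1.37, -1.41 to -1.34). Cxcr2, the receptor that draws neutrophils to chemokines, had 1204 reads with C-PC and 2746 in the control (-1.07, -1.17 to -0.97). Single members spread around the median: Slfn4 was at -0.87, Ptgs2 at -0.71, Acod1 at -0.65 and Fpr2 at -0.50, while Clec4e was at -0.02, Retnlg at 0.11, Il1r2 at 0.17 and Clec4d at 0.31. The lowest member after S100a8 and S100a9 was Trem3, an activating receptor, at 5.76 CPM with C-PC and 13.9 CPM in the control (-1.23, -1.60 to -0.91). Mmp8, a collagenase stored in late granules, had 796 reads with C-PC and 1120 in the control (-0.37, -0.50 to -0.24). Together with Serpinb1a, a protease inhibitor at -0.62, Mmp8 was 1 of the 2 precursor genes that were not called.

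**Figure D3:**
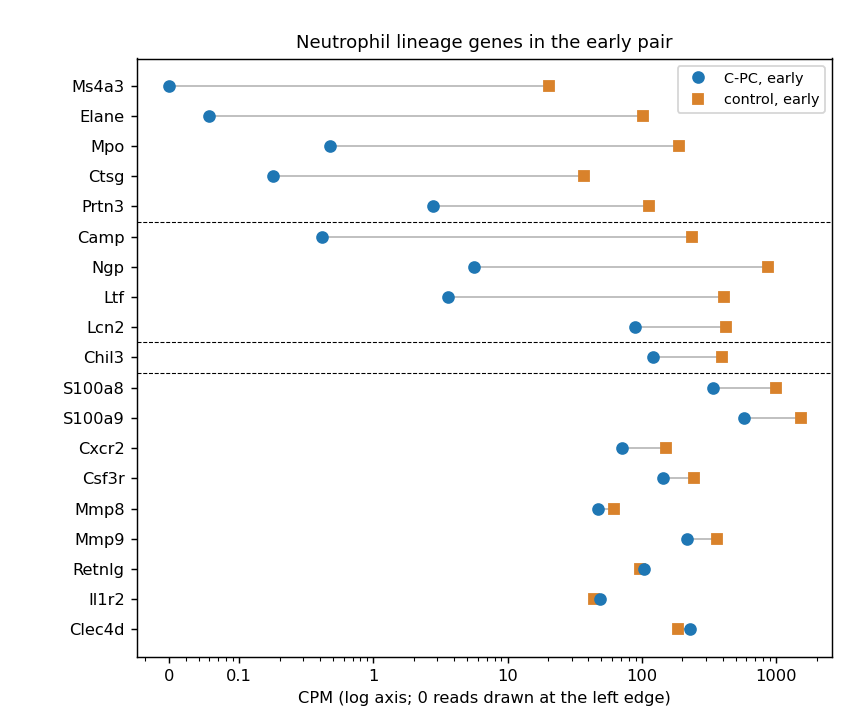
Levels (CPM, log scale) of 19 neutrophil lineage genes in the early C-PC library (blue circles) and the early control (orange squares), with dashed lines between primary granule genes, specific granule genes, Chil3 and mature neutrophil genes. The last group also holds Mmp8, which the text counts with the precursor genes. The gap is widest for Elane, at 0.0594 CPM with C-PC and 103 CPM in the control. Wide gaps occur in both granule groups, as for Mpo and Camp. At the bottom the gap closes, with Clec4d at 226 CPM with C-PC and 186 CPM in the control.

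Eosinophil granule genes went with the neutrophil precursor genes, whereas mast cell genes did not. Of 8 eosinophil genes compared, 6 were called lower, with a median of -4.45, or -4.10 where the 5 genes at 0 reads are put at their bound. Prg2, the major basic protein, had 0 reads with C-PC and 1065 in the control, at least 326-fold lower. Epx, the eosinophil peroxidase, had 0 reads with C-PC and 364 in the control, at least 112-fold lower. The surface receptors of mature eosinophils were not called, with 33 reads with C-PC and 45 in the control for Siglecf and 40 reads with C-PC and 46 in the control for Ccr3. Ear1, Ear2 and Ear6 encode near-identical ribonucleases whose reads cannot be told apart with certainty.

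Mast cells reside in skin and store proteases in their granules. Of 11 mast cell genes compared, 5 were called higher (2.92% of all genes were) and 0 lower, with a median of 0.86. Cpa3, the mast cell carboxypeptidase, had 503 reads with C-PC and 208 in the control (1.39, 1.16 to 1.64). Tpsab1, a tryptase, had 438 reads with C-PC and 120 in the control (1.97, 1.70 to 2.29), although it and Tpsb2 are close copies. Kit, the receptor for stem cell factor, and Hdc, which makes histamine, were not called, at -0.30 for Kit and -0.18 for Hdc. Mcpt8 and Prss34, proteases of basophils picked after their values were seen, went the other way: Mcpt8 had 5 reads with C-PC and 41 in the control, and Prss34 had 1 read with C-PC and 40 in the control.

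Antibody genes were nearly absent from the C-PC library. Of 11 genes of plasma cells and immunoglobulin constant regions compared, 10 were called lower, with a median of -5.54 and a summed level of 22.2 CPM with C-PC and 916 CPM in the control. Ighg2b, the IgG2b heavy chain, had 2 reads with C-PC and 3310 in the control (-9.60, -13.62 to -8.72). Ighg1 had 1 read with C-PC and 1859 in the control (-9.19, -16.04 to -8.26). Igkc, the kappa light chain, had 49 reads with C-PC and 4604 in the control (-6.38, -6.87 to -6.03). Igha, the heavy chain of mucosal IgA, had 51 reads with C-PC and 2676 in the control (-5.54, -6.02 to -5.19). Jchain, which joins polymeric IgA and IgM, had 17 reads with C-PC and 1075 in the control (-5.71, -6.65 to -5.18).

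Ighm, the heavy chain of B cells that have not switched class, was the compared member that was not called, with 244 reads with C-PC and 448 in the control (-0.75, -0.99 to -0.53). The variable segments went with the constant regions. Of 152 segments listed, 109 were compared and all 109 were called lower, beside 6.85% of all genes. Of these 109, 103 had 0 reads with C-PC, and together the 109 had 9 reads with C-PC and 4093 in the control. Each was therefore compared for its control reads alone. A segment at 0 reads with C-PC had to be called lower, so the count of calls adds nothing to these read totals. These segments lie in clusters and weigh on the count per chromosome: on chromosome 12, 15.1% of genes were called lower, and 6.98% once immunoglobulin segments were set aside. Counts of B cell genes were low. Of 9 compared, 1 was called higher and 3 lower (median -0.26), with Cd79b, a subunit of the B cell receptor, at 24 reads with C-PC and 63 in the control (-1.21, -2.01 to -0.57). Ebf1, a factor that B cells and fat precursors share, stood at -0.06. The member called higher was Vpreb1, with 10 reads with C-PC and 0 in the control; its exons overlap Top3b.

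T and NK cell genes were lower as well, at low levels. Of 21 compared, 14 were called lower and 0 higher (median -1.32), with a summed level of 26.1 CPM with C-PC and 70.8 CPM in the control. Nkg7, a granule protein of cytotoxic cells, had 2 reads with C-PC and 128 in the control (-4.93, -8.94 to -4.00). Cd4, which macrophages can also carry, had 129 reads with C-PC and 391 in the control (-1.46, -1.78 to -1.19). Cd3d, a subunit of the T cell receptor complex, had 10 reads with C-PC and 51 in the control (-2.03, -3.37 to -1.23). Ccl5 did not differ beyond counting error, with 44 reads with C-PC and 43 in the control.

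Most red cell genes were lower, while the main globins were level. Of 17 erythroid genes compared, 13 were called lower and 0 higher (median -3.16). Slc4a1, the anion exchanger of the red cell membrane, had 2 reads with C-PC and 704 in the control (-7.37, -11.39 to -6.48). Klf1 and Gata1 are the erythroid transcription factors. Klf1 had 2 reads with C-PC and 42 in the control (-3.37, -7.36 to -2.33), and Gata1 had 5 reads with C-PC and 65 in the control (-3.16, -5.25 to -2.28). Globin transcripts, which persist in circulating reticulocytes, were level: Hbb-bs had 7474 reads with C-PC and 6603 in the control (0.30, 0.25 to 0.35), and Hba-a1 had 7469 reads with C-PC and 7110 in the control (0.19, 0.15 to 0.24). Alas2, which starts heme synthesis in red cells, was not called either, with 367 reads with C-PC and 563 in the control (-0.49, -0.69 to -0.30). The globin copies are close to identical, and the call of Hba-a2 as lower rests on 26 reads with C-PC and 71 in the control. Owing to the globins the summed level of the list was 968 CPM with C-PC and 945 CPM in the control.

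Platelet and megakaryocyte genes were lower with 1 exception. Of 11 compared, 10 were called lower and 1 higher (median -2.25). Itga2b, the platelet integrin subunit, had 102 reads with C-PC and 534 in the control (-2.25, -2.59 to -1.96). Gp5, a glycoprotein of the platelet surface, had 8 reads with C-PC and 171 in the control (-4.00, -5.53 to -3.29). Pf4, a platelet chemokine that macrophages also make, was the member called higher, at 374 CPM with C-PC and 188 CPM in the control (1.01, 0.95 to 1.07). Tubb1, the platelet tubulin, was picked after its values were seen and had 4 reads with C-PC and 335 in the control (-5.71, -8.15 to -4.90).

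Macrophage genes as a list were close to equality, with a small set higher. Of 22 compared, 3 were called higher and 2 lower (median 0.17). Lyz2, the lysozyme of myeloid cells, stood at 3772 CPM with C-PC and 3849 CPM in the control (-0.01), and Adgre1, which encodes the F4/80 antigen, gave 0.21. Gpnmb, a glycoprotein of lipid-laden and lysosome-rich macrophages, stood at 621 CPM with C-PC and 189 CPM in the control (1.74, 1.68 to 1.80). Trem2, a lipid-sensing receptor, had 2023 reads with C-PC and 841 in the control (1.39, 1.27 to 1.51). Spp1, the osteopontin of activated macrophages and bone cells, stood at 2392 CPM with C-PC and 1060 CPM in the control (1.20, 1.17 to 1.22). The 2 members called lower were Chil3 and Retnla, with 6 reads with C-PC and 63 in the control for Retnla. Arg1 and Mrc1, which like those genes are known from alternatively activated macrophages, were not called and lay above 0, with Arg1 at 602 CPM with C-PC and 387 CPM in the control (0.66, 0.62 to 0.70) and Mrc1 at 481 CPM with C-PC and 303 CPM in the control (0.69, 0.64 to 0.74). Ccr2, the receptor of monocytes newly come from blood, was not called at -0.96 (-1.01 to -0.90).

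Further genes of lipid-handling macrophages were read as a list that was drawn up after values were seen. Of 22 compared, 4 were called higher and 0 lower (median 0.40), and 3 of the 4 are Gpnmb, Trem2 and Spp1. The other was Marco, a scavenger receptor, with 302 reads with C-PC and 93 in the control (1.80, 1.48 to 2.17). Several members lay just under 2-fold, including Plin2, which coats lipid droplets, at 686 CPM with C-PC and 355 CPM in the control (0.97, 0.93 to 1.02). Lgals3, the galectin 3 gene, stood at 605 CPM with C-PC and 325 CPM in the control (0.92, 0.87 to 0.97).

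Lysosomal genes, also listed after values were seen, were higher by small amounts at high levels. None of the 42 compared was called, and 35 of the 42 had a ratio above 0, as did 8397 of all 16589 genes; their median was 0.20. Their summed level was 27224 CPM with C-PC and 20112 CPM in the control. Ctsl, the cathepsin L protease, stood at 2635 CPM with C-PC and 1383 CPM in the control (0.95, 0.93 to 0.97). Ctsb, the cathepsin B protease, stood at 4760 CPM with C-PC and 2987 CPM in the control (0.70, 0.68 to 0.71), and Psap, which activates lysosomal lipid breakdown, at 4645 CPM with C-PC and 2907 CPM in the control (0.70). These 3 genes were among the 10 largest gains of the pair in CPM. Tfeb, a transcription factor of lysosomal genes, stood at -0.23 (-0.41 to -0.05).

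Iron and heme genes, listed in the same way, held 1 member called higher and 4 lower of 19 compared (median 0.10). Hmox1, the heme oxygenase that breaks down heme from red cells, stood at 1779 CPM with C-PC and 739 CPM in the control (1.29, 1.26 to 1.32). The ferritin subunit genes were not called, at 0.39 for Fth1 and 0.69 for Ftl1, and Slc48a1, a heme exporter of the lysosome, was at 0.61. Hp, the haptoglobin gene, had 4727 reads with C-PC and 12090 in the control (-1.23, -1.28 to -1.18), and Hpx, the hemopexin gene, had 25 reads with C-PC and 84 in the control (-1.56, -2.33 to -0.97). The other members called lower were the granule genes Lcn2 and Ltf.

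Antigen presentation genes did not move as a block. Of 11 class II genes compared, 2 were called higher and 5 lower (median -0.92). Cd74, the invariant chain, stood at 311 CPM with C-PC and 646 CPM in the control (-1.03, -1.08 to -0.99), and H2-Ab1 at 55.5 CPM with C-PC and 126 CPM in the control (-1.16, -1.27 to -1.05). H2-Aa, which encodes the partner chain of H2-Ab1, was not called, at 61.9 CPM with C-PC and 52.5 CPM in the control. The members called higher were H2-Eb1, with 816 reads with C-PC and 93 in the control (3.23, 2.94 to 3.58), and the pseudogene H2-Ea-ps, with 166 reads with C-PC and 79 in the control (1.17, 0.80 to 1.60). Class II genes are among the most variable between mouse strains, and the labels name no strain. Dendritic and Langerhans cell genes had 3 of 10 called lower (median -0.11), among them Flt3, with 69 reads with C-PC and 171 in the control (-1.17, -1.61 to -0.78).

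Complement genes had 2 of 21 called higher and 5 called lower (median -0.15). C3, the central component, stood at 269 CPM with C-PC and 736 CPM in the control (-1.43, -1.48 to -1.38). C7, of the terminal complex, had 89 reads with C-PC and 346 in the control (-1.82, -2.19 to -1.50). The C1q genes, which macrophages make, lay between -0.13 and 0.13. Of the members called higher, C4a is a near-copy of C4b and had 30 reads with C-PC and 9 in the control.

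Bone, cartilage and joint genes were lower with C-PC. Of 15 osteoblast and osteocyte genes compared, 13 were called lower and 0 higher, with a median of -3.20, or -3.15 with the 3 genes at 0 reads put at their bound. Ibsp, the bone sialoprotein (chromosome 5, 104299171 to 104311469), had 0 reads with C-PC and 3018 in the control, at least 925-fold lower. Sp7, the osteoblast transcription factor osterix, had 5 reads with C-PC and 132 in the control (-4.15, -6.25 to -3.34). Dmp1, a matrix protein of osteocytes, had 20 reads with C-PC and 266 in the control (-3.49, -4.35 to -2.96). Alpl, the alkaline phosphatase of mineralising cells, had 30 reads with C-PC and 410 in the control (-3.57, -4.24 to -3.12). Runx2, which acts before Sp7 and is also read outside bone, was level at 545 reads with C-PC and 551 in the control (0.11, -0.07 to 0.28).

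Cartilage genes were lower by similar amounts, with 11 of 13 compared called lower (median -3.04). Col2a1, the main collagen of cartilage, had 20 reads with C-PC and 1599 in the control (-6.07, -6.91 to -5.57). Acan, the aggrecan core protein, had 33 reads with C-PC and 685 in the control (-4.18, -4.80 to -3.75). Comp, a matrix protein of cartilage and tendon, stood at 17.3 CPM with C-PC and 157 CPM in the control (-3.15, -3.34 to -2.98). Sox9, the cartilage transcription factor that hair follicles share, was at 0.41 (0.16 to 0.67). Osteoclast genes had 3 of 10 called lower (median -0.40), while Ctsk, the cathepsin K gene that wound cells also express, was at 0.07.

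Tendon and joint surface genes had 7 of 11 called lower (median -1.39). Prg4, the lubricin of joint surfaces, stood at 355 CPM with C-PC and 1703 CPM in the control (-2.24, -2.28 to -2.20). Thbs4, a thrombospondin of tendon and muscle junctions, stood at 841 CPM with C-PC and 2873 CPM in the control (-1.75, -1.78 to -1.72). Thbs4 was the second largest loss of the pair in CPM, after Acta1. Fmod, the fibromodulin that shapes collagen fibrils, stood at 66.6 CPM with C-PC and 293 CPM in the control (-2.11, -2.21 to -2.02). The tendon cell genes Tnmd and Scx were not called, at -0.42 for Tnmd and -0.65 for Scx.

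Slow skeletal muscle genes were lower in a graded way, and fast muscle genes by a more even factor. Of 12 slow muscle genes compared, 9 were called lower (median -1.62). Myh7, the slow myosin heavy chain, had 3 reads with C-PC and 1543 in the control (-8.17, -11.16 to -7.34). Myl2 and Myl3 encode its light chains. Myl2 had 6 reads with C-PC and 382 in the control (-5.48, -7.33 to -4.74), and Myl3 had 7 reads with C-PC and 286 in the control (-4.89, -6.56 to -4.17). Exons of Myh7 overlap Mhrt and other genes, those of Myl2 overlap Ccdc63 and those of Myl3 overlap Pth1r. Tnni1, the slow troponin I, was lower by less, with 232 reads with C-PC and 730 in the control (-1.52, -1.75 to -1.32). Csrp3, a muscle LIM protein, was not called and lay above 0 at 0.92 (0.75 to 1.09).

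Of 14 fast muscle genes compared, 9 were called lower and 0 higher, and the middle of the list lay between -1.17 and -0.95 around a median of -1.10. Acta1 gave -1.13 (-1.15 to -1.11), Myh4, the fastest myosin heavy chain, -1.15 (-1.18 to -1.13) and Ckm, the muscle creatine kinase, -1.34 (-1.38 to -1.29). Myh2, the myosin of fast oxidative fibres, was lowest, with 543 reads with C-PC and 2083 in the control (-1.81, -1.96 to -1.68). Genes of muscle formation and regeneration had 1 of 16 called lower (median -0.46), namely Myf6. The myosins of newly formed fibres were not called, with Myh3 at -0.30 (-0.39 to -0.20) and Myh8 at 0.52 (0.32 to 0.71). Pfkm, the muscle phosphofructokinase, was the 1 glycolysis and hypoxia gene called lower (-1.09), and Gapdh, which has many copies in the genome, the 1 called higher, of 24 compared (median -0.05).

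Fat cell genes had 5 of 18 called lower and 0 higher (median -0.27). Cfd, the adipsin of fat cells, had 705 reads with C-PC and 2355 in the control (-1.62, -1.74 to -1.50), and Slc2a4, the insulin-dependent glucose transporter of fat and muscle, had 401 reads with C-PC and 1151 in the control (-1.40, -1.57 to -1.23). Adipoq, the adiponectin, was not called at -0.65 (-0.86 to -0.44), and Lep, the leptin, was above 0 at 0.66 (0.30 to 1.05). Lipid and sterol synthesis genes had 1 of 24 called higher and 0 lower (median 0.02).

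Nerve genes were the largest set called higher. Of 26 genes of Schwann cells and nerve compared, 12 were called higher and 1 lower, against 2.92% and 6.85% of all genes, and their median was 0.89. Over the 14 members with a mean of at least 5 CPM the median was 0.29, so the list median rests largely on members of low counts. Sox10, the transcription factor of the Schwann cell lineage, had 121 reads with C-PC and 26 in the control (2.25, 1.72 to 3.01). Cdh19, a cadherin of Schwann cell precursors, had 186 reads with C-PC and 25 in the control (2.92, 2.41 to 3.68). Foxd3, a neural crest factor, had 55 reads with C-PC and 12 in the control (2.14, 1.40 to 3.35). Sox2, which marks immature and repair Schwann cells, had 31 reads with C-PC and 2 in the control (3.13, 2.10 to 7.18).

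The nerve genes were not all higher. The myelin genes Mbp and Pmp22, which other tissues also transcribe, were not called at 0.25 for Mbp and 0.33 for Pmp22. Erbb3, the neuregulin receptor of Schwann cells, was level at 261 reads with C-PC and 254 in the control (0.16, -0.09 to 0.42). Ngfr, the low-affinity neurotrophin receptor, had 257 reads with C-PC and 85 in the control (1.69, 1.36 to 2.09). Artn, a neurotrophic ligand, was the member called lower, with 60 reads with C-PC and 163 in the control (-1.29, -1.77 to -0.88). Shh, the hedgehog ligand made by nerve and hair follicle cells, belongs to the hair follicle list. It had 28 reads with C-PC and 0 in the control, at least 10.2-fold higher. Gli1, a hedgehog target picked after values were seen, had 102 reads with C-PC and 52 in the control (1.06, 0.60 to 1.60).

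Myofibroblast and smooth muscle genes had 3 of 16 called higher and 0 lower (median 0.44). Lrrc15, a membrane protein of myofibroblasts, stood at 261 CPM with C-PC and 97.1 CPM in the control (1.45, 1.37 to 1.53), and Cnn1, a contractile calponin, had 105 reads with C-PC and 37 in the control (1.57, 1.07 to 2.21). Acta2, the smooth muscle actin that defines myofibroblasts, lay just under 2-fold at 358 CPM with C-PC and 190 CPM in the control (0.93, 0.87 to 1.00), as did Postn, the periostin, at 0.92 (0.89 to 0.95). The call of Tagln rests on 31 reads with C-PC and 14 in the control, and its exons overlap Pcsk7. Fibroblast subset genes had 1 of 19 called higher and 0 lower (median 0.31), namely Crabp1, with 922 reads with C-PC and 367 in the control (1.45, 1.27 to 1.63).

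The matrix itself was close to equality. Of 17 collagens of granulation tissue, 0 were called (median 0.13), with Col1a1 at 0.31, Col3a1 at 0.12 and Col12a1, the lowest, at -0.82 (-0.85 to -0.79). Of 20 matrix glycoprotein and cross-linking genes, 0 were called (median -0.03), with the fibronectin gene Fn1 at -0.28 and the cross-linking enzyme gene Lox at -0.43. Matrix proteases and inhibitors had 2 of 23 called lower (median 0.16), a share of 8.7% that is near the 6.85% of all genes. They were Mmp13, a collagenase that bone and cartilage also express, with 314 reads with C-PC and 1494 in the control (-2.12, -2.31 to -1.95), and Mmp3, the stromelysin, with 1587 reads with C-PC and 4497 in the control (-1.38, -1.46 to -1.30). Vessel lists held no called gene, with a median of -0.15 over 21 endothelial genes and 0.03 over 9 pericyte genes. The lymphatic genes Lyve1 and Flt4 were the lowest endothelial values at -0.81 for Lyve1 and -0.79 for Flt4.

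Most genes of inflammatory signals were not called. The shares called lower were 12.5% of cytokines and 16% of chemokines, beside 6.85% of all genes. Of 16 cytokines compared, 2 were called lower and 0 higher (median -0.11): Tnfsf11, the RANKL ligand that drives osteoclasts, with 115 reads with C-PC and 461 in the control (-1.86, -2.19 to -1.58), and Tslp, with 5 reads with C-PC and 25 in the control. Il1b and Tnf were not called, at 0.13 for Il1b and 0.42 for Tnf. Of 25 chemokines, 4 were called lower and 0 higher (median 0.15). Cxcl14 stood at 352 CPM with C-PC and 779 CPM in the control (-1.12, -1.17 to -1.08), and Cxcl13, the B cell attractant, had 25 reads with C-PC and 173 in the control (-2.58, -3.34 to -2.06). Cxcl2, a neutrophil attractant, was at 0.18 (0.13 to 0.24), while Cxcl5, another, was at -0.65 (-0.71 to -0.58). Neither 28 interferon-stimulated genes (median 0.09), nor 30 proliferation genes (median 0.05), nor 21 immediate early genes (median -0.02), nor 18 clock genes (median -0.05) held a called member.

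Antioxidant genes driven by Nrf2 had 2 of 24 called higher and 1 lower (median 0.04). Hmox1 and Gsta4 were the ones called higher, with Gsta4, a glutathione transferase, at 97 reads with C-PC and 36 in the control (1.50, 0.99 to 2.15). Srxn1, the sulfiredoxin, was at 0.75 (0.64 to 0.86), whereas Nqo1, the quinone reductase often used as the readout of the pathway, was level at 110 reads with C-PC and 123 in the control (-0.04, -0.42 to 0.34). Mitochondrially encoded genes had 1 of 12 called lower (median -0.18), a share of 8.33% that is near the 6.85% of all genes. It was mt-Nd4l, whose reading frame overlaps mt-Nd4.

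Among signalling lists, TGF-beta and BMP genes had 1 of 29 called higher and 4 lower (median -0.08). Bmp4, a ligand of bone and skin, had 27 reads with C-PC and 122 in the control (-1.98, -2.71 to -1.44), and Nog, its inhibitor, had 39 reads with C-PC and 150 in the control (-1.77, -2.37 to -1.31). Wnt genes had 5 of 29 called higher and 2 lower (median -0.04), with the inhibitor gene Sfrp5 at 142 reads with C-PC and 67 in the control (1.18, 0.78 to 1.65) and the agonist gene Rspo2 at 7 reads with C-PC and 55 in the control (-2.56, -4.23 to -1.71). Growth factors of wounds had 2 of 32 called higher and 3 lower (median -0.04), shares of 6.25% higher and 9.38% lower beside 2.92% and 6.85% of all genes. Btc, the EGF receptor ligand betacellulin, had 39 reads with C-PC and 7 in the control (2.29, 1.42 to 4.01), and Bdnf, a neurotrophin, had 24 reads with C-PC and 85 in the control (-1.63, -2.42 to -1.03).

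Transcription factor genes that mark regions of the body differed in both directions. Connective tissue cells keep such genes on according to the part of the embryo they came from. Of 22 compared, 4 were called higher and 6 lower (median 0.05). Shox2, a factor of the proximal limb, had 271 reads with C-PC and 24 in the control (3.51, 3.01 to 4.29), and its exons overlap Rsrc1. Its ratio was the highest among genes coding for proteins with a mean of at least 5 CPM, other than Gm and Rik symbols. Foxd1 had 92 reads with C-PC and 7 in the control (3.49, 2.74 to 5.19), Pitx1, a factor of the hindlimb, had 29 reads with C-PC and 2 in the control (3.04, 2.00 to 7.09), and Emx2, a factor of shoulder and pelvic girdle, had 126 reads with C-PC and 33 in the control (1.99, 1.49 to 2.65).

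In the other direction, Zic1, a factor of dorsal tissue of the trunk, had 96 reads with C-PC and 923 in the control (-3.12, -3.46 to -2.84). Pax1, a factor of the vertebral column and shoulder, had 0 reads with C-PC and 25 in the control, at least 7.66-fold lower, and its relative Pax9 had 7 reads with C-PC and 78 in the control (-3.04, -4.72 to -2.25). Also called lower were Alx4, a limb patterning factor, at -1.78, and Dlx5, which bone cells also use, at -1.48. The Hox genes, which mark levels along the body axis, were mostly level (median -0.06). Of 28 compared, 1 was called higher (3.57%) and 2 lower (7.14%), shares near the 2.92% and 6.85% of all genes. Hoxc11 had 79 reads with C-PC and 22 in the control (1.87, 1.27 to 2.72), and Hoxd10 had 31 reads with C-PC and 128 in the control (-1.86, -2.54 to -1.35). Hoxc10 was level at 349 reads with C-PC and 351 in the control, as was Hoxa9 at 214 reads with C-PC and 219 in the control. Where on the body the tissue was taken is not in the labels, so a difference in site and a difference in treatment cannot be told apart here.

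**Figure D4:**
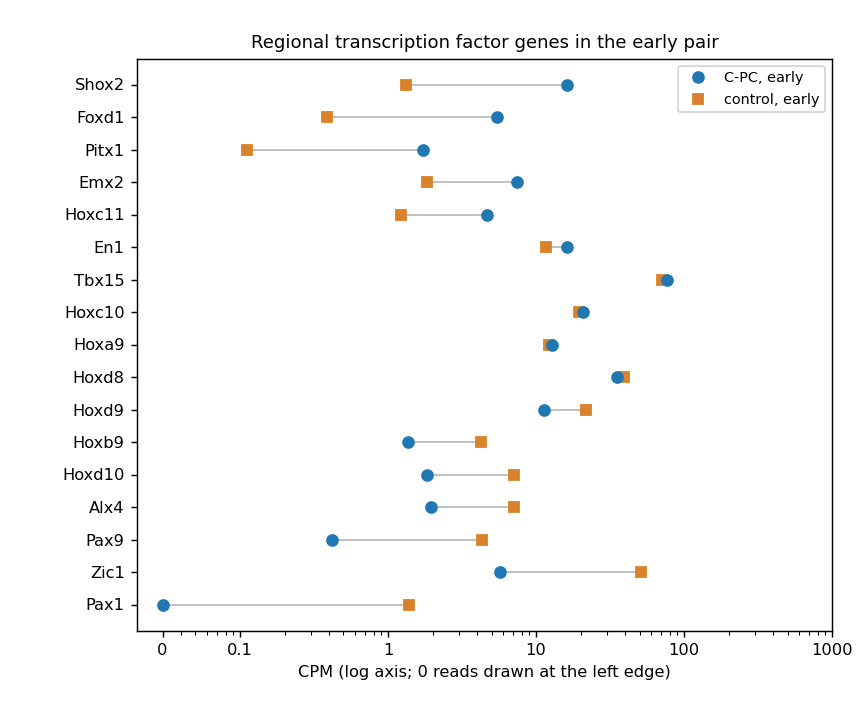
Levels (CPM, log scale) of 17 regional transcription factor genes in the early C-PC library (blue circles) and the early control (orange squares). Shox2, Foxd1, Pitx1, Emx2 and Hoxc11 at the top are higher with C-PC, the genes from En1 to Hoxd9 were not called, and the 6 genes from Hoxb9 down to Pax1 are lower with C-PC.

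Epidermal and follicle genes were read at too few counts to describe a layer of cells. Basal keratinocyte genes had 3 of 11 called higher and 0 lower (median 0.15). From the reads given above, Krt14 was at least 11.6-fold higher with C-PC and Krt5 at least 8.34-fold higher. Epidermal differentiation genes had 2 of 4 called higher (median 0.71), wound-edge keratinocyte genes 2 of 8 called higher and 1 lower (median 0.54), and hair follicle genes 3 of 7 called higher and 2 lower (median -0.29). Krt6b, a keratin of the wound edge, had 18 reads with C-PC and 0 in the control. The wound-edge gene called lower was Inhba, an activin subunit that fibroblasts also make, at 68.3 CPM with C-PC and 147 CPM in the control (-1.08, -1.18 to -0.98). Sebaceous gland genes had 1 of 7 called in each direction (median 0.09) and melanocyte genes 0 of 4 (median 0.04).

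Some large ratios fell on genes that have near-identical copies elsewhere in the genome. Rps2, a ribosomal protein gene, had 111 reads with C-PC and 6683 in the control (-5.77, -6.07 to -5.52), yet Rps2 and its 5 listed pseudogene copies together had 13465 reads with C-PC and 14480 in the control, a ratio of 0.02. Rpsa-ps10, a copy of Rpsa picked after its values were seen, had 9200 reads with C-PC and 1027 in the control. In contrast, Rpsa and its 5 listed copies together had 25243 reads with C-PC and 23133 in the control (0.25). Of 678 processed pseudogenes compared, 8.11% were called higher and 7.82% lower. Cytosolic ribosomal protein genes, listed after values were seen, had 3 of 79 called higher and 4 lower (median 0.21), and the ratios of single members among them are uncertain for the same reason. The high ratios of Gapdh (3.34), Srp54b (2.72), Cwc22 (2.18) and Rpl21 (2.23) are given with the same limit.

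The early difference in granulocyte and immunoglobulin genes was also read at the other stages, each with its own pair of libraries. The median ratio of the granulocyte precursor list was -5.34 at the early, -4.27 at the middle and -3.42 at the late stage. Its summed level in the C-PC libraries was 344 CPM early, 65.9 CPM in the middle and 24.3 CPM late, and in the controls 2999 CPM early, 1866 CPM in the middle and 164 CPM late. For plasma cells and immunoglobulin constant regions the median was -5.54 early, -4.72 in the middle and -0.89 late. The late medians rest on fewer genes, 11 of the granulocyte list and 10 of the immunoglobulin list. At the middle stage other lists were also far below 0, with medians of -3.62 for macrophages, -3.77 for collagens and -4.57 for chemokines, and fast muscle genes summed to 162330 CPM with C-PC and 10342 CPM in the control. The part of that muscle share in the middle ratios was not tested. Mature neutrophil genes were closest to equality at the early stage, with medians of -0.65 early, -5.85 in the middle and -1.05 late. With 1 library per group and stage none of these differences between stages could be tested.

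**Figure D5:**
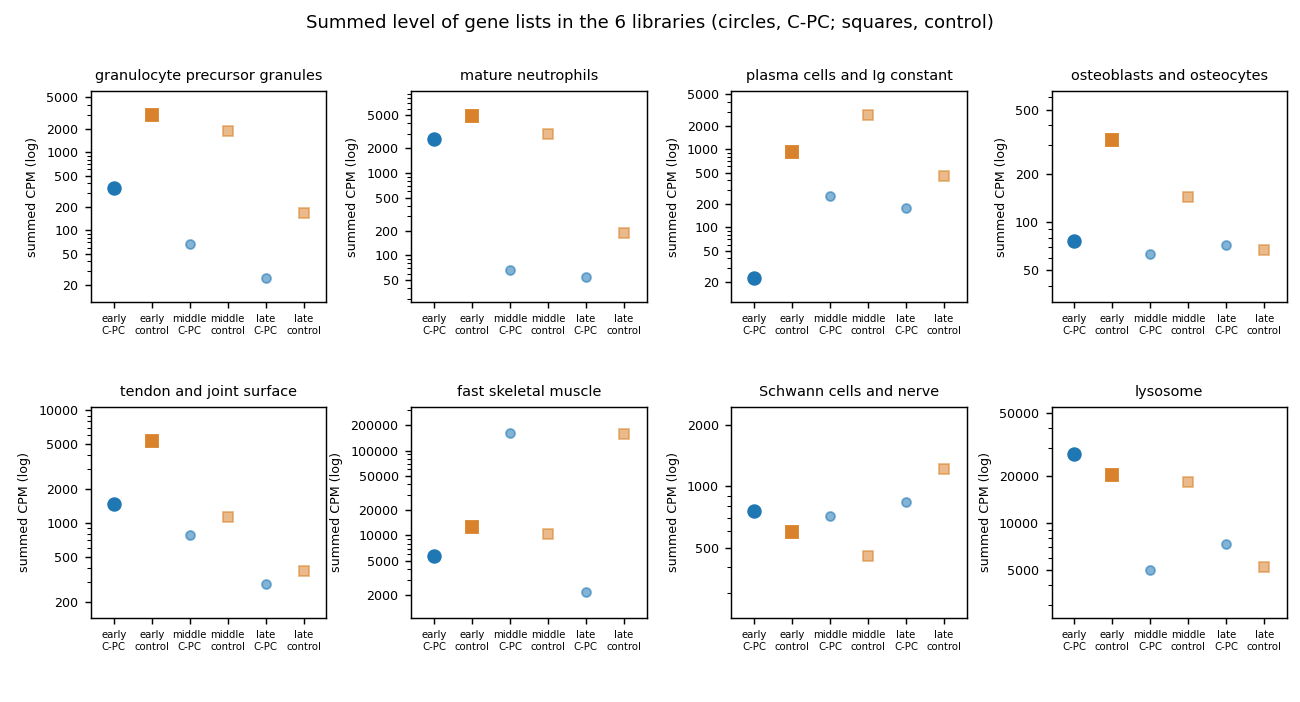
Summed level (CPM, log scale, axes differ between panels) of 8 gene lists in each of the 6 libraries, with circles for C-PC, squares for control, and the early pair drawn larger. Granulocyte precursor genes are lower with C-PC at every stage, whereas fast muscle genes are lower with C-PC early, at 5800 CPM with C-PC and 12460 CPM in the control, higher in the middle, and again lower late, at 2148 CPM with C-PC and 158090 CPM in the control.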

How the data were processed

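Total RNA came from column extraction, and the library kit keeps no strand information, per the labels' protocols. The choice of aligner, counter and annotation is not given in the sources used here. Submitters' processing notes name hg38 alone, a human build, while 22885 of the 22894 listed identifiers are in GENCODE M21 for mouse GRCm38 and 96.9% have the same coordinates, which are given as listed. In the deposited table each value is a signal, a read count that the authors scaled by a factor of its library. The scaled totals were close but not equal, at 17560420 with C-PC and 17284419 in the control. The scaling was worked out from the values: in both libraries, 100% came out as whole reads to within 0.1 read. Per the file headers the table also holds the authors' log2 fold changes and p-values, which were not used.

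Ratios used a pseudocount of 2, which understates changes of low genes. Intervals are exact conditional binomial at 95%; a gene at 0 reads was set against a floor of 3 reads, stated as "at least", which covers counting error only. CPM is reads scaled to a total of 1000000 on genes, without the authors' scaling, and RPKM uses the deposited gene length. No count test was run, as 1 library per group leaves no residual degrees of freedom. The steps were tested on simulated data. Python 3.11.15, numpy 2.4.6, pandas 2.3.3, scipy 1.17.1 and matplotlib 3.10.9 were used.

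The comparison and its 51 gene lists were chosen with earlier results of these data known, and 4 more lists (lysosome, iron and heme handling, foam-cell and lipid-handling macrophages, cytosolic ribosomal proteins) were added after values were seen. Named genes are the 15 highest and 15 lowest ratios and the 10 largest gains and losses in CPM among genes coding for proteins whose mean reached 5 CPM, other than Gm and Rik symbols. From each list come up to 5 members with the widest ratios at that level, those at 0 reads in 1 library with at least 50 in the other, and the first 4 members; other members are named with their list. Genes picked after values were seen are marked. Other scalings, pseudocounts, filters and folds were tried. Overlapping genes, and near-identical copies, cannot be separated. The middle and late tables were used for medians and summed levels only. A few members of the lists are counted but not reported by name here.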

Additional observations from a re-analysis of the deposited data

Results flagged for a closer look

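Muscle genes were lower with C-PC at the early and late stages and higher at the middle stage. The median log2 ratio of the fast skeletal muscle list was -1.10 at the early, 4.52 at the middle and -7.07 at the late stage. The median of the slow skeletal muscle list was -1.62 at the early, 1.25 at the middle and -3.54 at the late stage. These lists stood out because the early and middle medians were at least 1 in size and opposite in sign. Each stage has its own pair of libraries, and the difference between stages was not tested, as there is 1 library per group.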

How the results depend on the processing

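The counts of genes called kept within 1.5 times of 485 higher and 1137 lower under 5 of 7 alternatives. They were 468 higher and 1174 lower when scaled to total reads, 472 and 1166 with DESeq2 size factors, 508 and 1158 with a pseudocount of 0.5, 338 and 924 with a pseudocount of 8, and 608 and 1292 with no filter on low values. A filter of at least 50 reads left 13188 genes, of which 174 were higher and 588 lower, so many calls rest on low counts. A 4-fold threshold left 127 higher and 418 lower. Of 143 named genes called, between 138 and 143 were still called under the scalings and pseudocounts and without a filter, 129 with the 50-read filter, which tests fewer genes, and 69 at 4-fold. List medians changed sign in a few cases. Lipid and sterol synthesis went to -0.0036 by total reads, and hair follicle from -0.29 to 0.064 with no filter. With the 50-read filter, basal keratinocytes went to -0.11 and epidermal differentiation from 0.71 to -0.13 (1 gene left). With that filter melanocytes went to -0.068 and pericytes to -0.0089. No named gene that was called changed sign. No paired analysis was possible because each group has 1 library, and for the same reason no library could be left out. Differences between these 2 libraries have no replicate check, and at 0 reads only a bound can be given.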
